A study of Arabidopsis thaliana with 8 samples.

Results

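The genes described here are those on which 21-nt small RNAs of es3 and es3dd plants could be compared, and the comparison asks which of these small RNAs need the Dicer enzymes DCL4 and DCL2. A gene was included when the authors' mean of es3 or of es3dd reached 5 in their TPM (reads of a gene scaled by a factor of the library, not divided by gene length). Of 32420 genes in the deposited table, 9017 met that rule. They held 94.75% of all 21-nt signal in es3 and 98.1% in es3dd. Of these members, 4798 reached 5 in es3 alone, 1032 in es3dd alone and 3187 in both. A gene that entered through es3 alone had to be lower in es3dd, so the counts of member genes below describe the class and are no evidence for a direction.

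RNA was taken from shoots, the aerial organs, of Arabidopsis thaliana at 20 days, of which 6 were spent on MS plates and 14 in soil, and total RNA went into small RNA libraries. The es3 plants carried ein5-1 and ski2-3, and the es3dd plants carried ein5-1, ski2-3, dcl4-2 and dcl2-1, so that both groups lacked the same RNA decay genes and no sample with intact decay was among the labelled ones. Each genotype had 4 libraries. Only group means are in the file, from which library values were worked back. For highly covered genes only splits near the group mean were searched, so their SD, SE and p-values are limited by that search. Libraries are called a to d here and could not be matched to the labelled replicates. The labels do not say whether replicates were separate sowings, so p-values measure the spread between these libraries. Col, the wild type, is given only as the authors' mean.

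EIN5, also called XRN4, degrades messenger RNA from its 5′ end in the cytoplasm, and SKI2 is a helicase that feeds RNA to the exosome, which degrades from the 3′ end. When decay fails, RNA-dependent RNA polymerases such as RDR6 can copy plant messenger RNA into double-stranded RNA, which DCL4 cuts into 21-nt and DCL2 into 22-nt small interfering RNAs (siRNAs). MicroRNAs (miRNAs) are made by DCL1 from hairpin precursors and guide Argonaute proteins to paired sites on messenger RNA. Some cleaved miRNA targets become templates for siRNAs in turn.

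Mature miRNAs and the sites that pair with them are shown because several of the most abundant member genes are known miRNA targets. The miRNA sequences were read from the RefSeq genome TAIR10.1 in DNA letters, 5′ to 3′, with the seed (bases 2 to 8) in capitals.
miR161.1, chromosome 1, 17825731 to 17825751, plus strand: tGAAAGTGactacatcggggt
miR161.2, chromosome 1, 17825722 to 17825742, plus strand: tCAATGCAttgaaagtgacta
miR393b-5p, chromosome 3, 20691657 to 20691678, plus strand: tCCAAAGGgatcgcattgatcc
miR165a-3p, chromosome 1, 78932 to 78952, minus strand: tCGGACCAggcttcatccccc
miR156a-5p, chromosome 2, 10676534 to 10676553, minus strand: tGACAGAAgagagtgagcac
miR171a-3p, chromosome 3, 19073521 to 19073541, plus strand: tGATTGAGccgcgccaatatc
miR160a-5p, chromosome 2, 16340282 to 16340302, plus strand: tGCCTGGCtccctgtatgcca
miR403-3p, chromosome 2, 19415154 to 19415174, plus strand: tTAGATTCacgcacaaactcg
miR161.1 and miR161.2 come from the same hairpin and overlap, and miR165a-3p shares its seed with the miR166 family.

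The sites below are on member transcripts, on the strand of the gene, with the bases opposite the seed in capitals. They were found by scoring every position of each transcript against 144 distinct mature sequences of member MIR loci, with a penalty of 1 for a mismatch and 0.5 for a G to U pair, doubled at miRNA positions 2 to 13, and a total of at most 3. A match is a description of letters and not a measured cleavage site.
AT1G63080 opposite miR161.1, penalty 2.5, chromosome 1, 23389789 to 23389809: atccaaatgtagtCACTTTCa
AT1G63400 opposite miR161.2, penalty 2, chromosome 1, 23508308 to 23508328: tagtcactttcaaCGCATTGa
AT1G62590 opposite miR161.2, penalty 1, chromosome 1, 23178190 to 23178210: tagtcacgttcaaTGCATTGa
AFB2 opposite miR393, penalty 2, chromosome 3, 9870237 to 9870258: gaaacaatgcgatcCCTTTGGa
ATHB8 opposite miR165, penalty 2.5, chromosome 4, 15866872 to 15866974 across an intron: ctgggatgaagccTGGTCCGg
SPL2 opposite miR156, penalty 1, chromosome 5, 17360758 to 17360777: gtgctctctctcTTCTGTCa
HAM1 opposite miR171a, penalty 0, chromosome 2, 18619128 to 18619148: gatattggcgcggCTCAATCa
ARF10 opposite miR160, penalty 2, chromosome 2, 12115741 to 12115761: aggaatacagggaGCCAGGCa
AGO2 opposite miR403, penalty 1, chromosome 1, 11185223 to 11185243: ggagtttgtgcgtGAATCTAa
The sites of AFB2 and AFB3 have the same letters, as have those of ATHB8 and REV.

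The members were made up of 6363 protein-coding genes, 2362 genes annotated as pseudogenes, 121 MIR loci, 82 plastid-encoded genes, 69 mitochondrion-encoded genes and 20 genes without an annotation. Protein-coding members carried a summed 287257 TPM in es3 and 49025 in es3dd, whereas MIR loci carried 174199 and 628981. MIR loci thus held 34.99% of the members' 21-nt sum in es3 and 84.6% in es3dd. These sums are of the authors' means, and the total behind their scaling is not given in the sources used here. Loci with the same mature sequence can carry the same reads, as MIR395b and MIR395c with identical means of 161.6 in es3 and 1016 in es3dd. A read can therefore be counted more than once in these sums and shares, by an amount that was not worked out. In bulk tissue, fewer cells that make a small RNA and less of it per cell cannot be told apart.

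**Figure D1:**
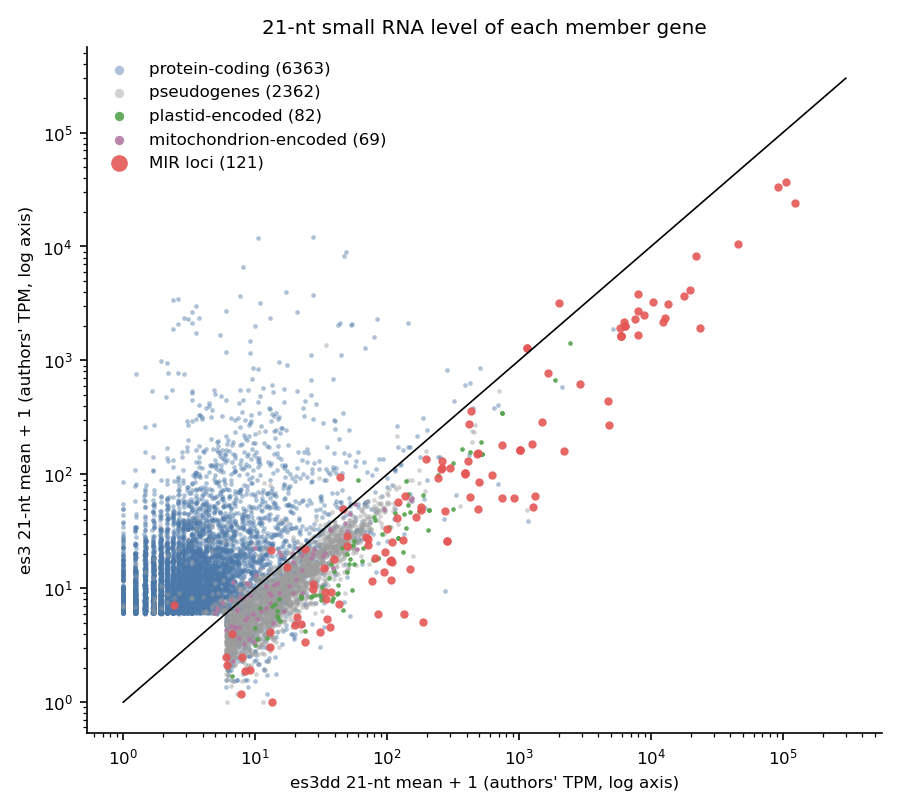
Each point is a member gene, with its es3dd mean + 1 on the x axis and its es3 mean + 1 on the y axis, both in the authors' TPM on log axes, coloured by annotation, and the line marks equal levels. Protein-coding genes spread far above the line, pseudogenes follow it on its lower side, and all but 7 of the 121 MIR loci lie below it. The empty lower left corner is the threshold of 5.

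Gene-wise tests with limma on log2(value + 1) covered 17448 genes, of which 45.9% were called higher and 7.72% lower in es3, at an adjusted p under 0.05 and a log2 difference of at least 1. Of the members, 8966 were tested, 5011 were higher and 1116 lower. Of the 8966 tested members, es3 lay above es3dd in every library for 4599 and below it for 1383. Over all genes tested these shares were 36.8% and 9%. Among the called members, libraries did not overlap for 4466 of the 5011 and for 886 of the 1116. The median log2 difference of all genes tested was 0.98, so that the split depends on scaling. With each library centred on its median, 2976 members were higher and 3036 lower (18.3% and 25.9% of all genes tested), and with libraries scaled to MIR loci 7301 were higher and 29 lower (86.8% and 0.166%). By the authors' own test, as deposited, 4775 members were higher and 1155 lower, against 32.3% and 6.61% of the genes with a result there.

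The effect of a gene is log2((es3 mean + 1)/(es3dd mean + 1)) of the authors' means. Its median was 1.27 over members and 0.93 over all genes tested. Just inside the threshold lay NQR at 5.002 in es3, and just outside it PEX7, whose es3 mean of 4.998 gave an effect of 1.81. Within 1 TPM of the threshold, 1218 genes lay inside and 1501 outside.

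Of protein-coding members, 4961 of 6349 tested were higher and 216 lower, and when median-centred 2947 and 610. Their median effect was 1.903. Pseudogenes had a median effect of -0.77, with 45 higher and 726 lower of 2362, but scaled to MIR loci 1187 were higher and 4 lower. The abundant pseudogenes AT1G46120 (authors' means of 537 in es3 and 709 in es3dd) and AT1G43750 (241 and 435) were not called, but both were lower when median-centred. AT1G05135 was an exception, with 1357 ± 107 for es3 and 33.5 ± 5.34 for es3dd (SD, n = 4). Plastid-encoded members had a median effect of -1.57, and mitochondrion-encoded members one of -0.52.

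The 21-nt signal of protein-coding genes was concentrated in few of them. In es3 the leading gene held 4.22% of the protein-coding members' sum, the leading 10 held 23.0%, the leading 100 held 55.1% and the leading 1000 held 79.9%. Of the leading 30, 29 had an effect of at least 1, 15 had a single exon and 12 shared at least 10% of their 21-base words with another gene. Reads of shared words cannot be assigned to a gene with certainty, and the authors' rule for them is not stated in the sources used here. The identical means of MIR395b and MIR395c show that such reads can enter the values of several genes. Because the unit is not divided by length, the order was also taken per kilobase of transcript, and 24 genes were among the first 30 by both measures. On that scale NIA2 came first at 3779 TPM per kb in es3, followed by CRF2 at 3479, GAE6 at 3444 and SMXL5 at 3261.

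**Figure D2:**
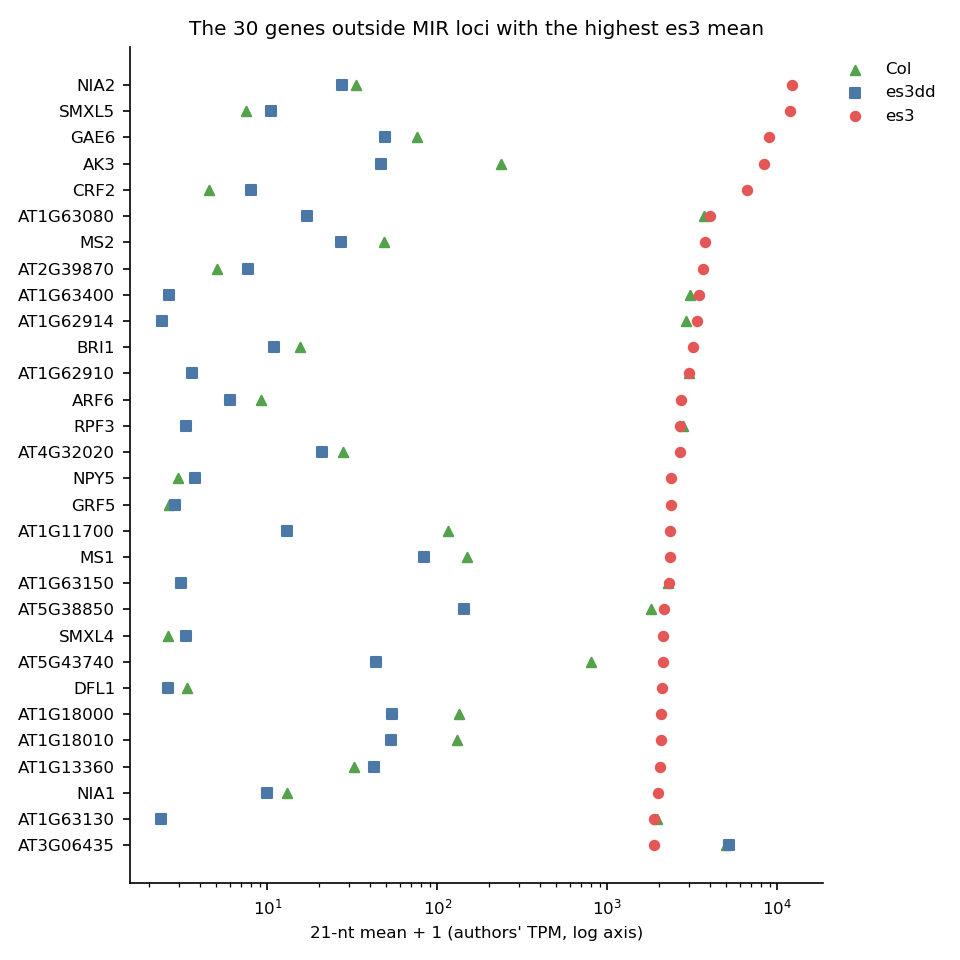
Authors' means of Col, es3dd and es3, each + 1 in TPM on a log axis, for the 30 genes outside MIR loci with the highest es3 mean. In 29 rows es3 lies far to the right of es3dd; Col lies near es3dd for most genes but on top of es3 for the PPR genes, and AT3G06435 is the row in which es3 is the lowest.

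Col shows 2 kinds of leading gene. Among the leading 30, the authors' Col mean was under 5% of the es3 mean for 17 genes and at least 50% of it for 9. Among the leading 100 these counts were 64 and 22. The first kind includes NIA2, SMXL5, CRF2, BRI1 and ARF6, and the second kind is mostly PPR genes. Over the 6363 protein-coding members, Spearman's rho of the Col mean was 0.745 with es3dd and 0.315 with es3, a description across genes that are not independent. Members were picked by these same es3 and es3dd means, and 4798 of all members entered through es3 alone. The choice restricts the 2 means differently, so the gap between the 2 values does not show which genotype Col resembles.

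Nitrogen, sulphur and methionine metabolism supplied several leaders. NIA2 (AT1G37130, chromosome 1, 14158452 to 14161938) and NIA1 encode nitrate reductases, which turn nitrate into nitrite. For NIA2 the authors' es3 mean was 12110, and the es3dd libraries read 26.6, 34.8, 19.5 and 25.1. The authors' deposited table gives it a log2 fold change of 8.83, and its es3 libraries were beyond the reach of the recovery. NIA1 (AT1G77760, chromosome 1, 29235721 to 29239484) read 2016, 1878, 2089.7 and 1986 in es3 and 3.54, 9.15, 1.86 and 21.3 in es3dd. The groups lay far apart, and NIA1 rose by a log2 difference of 8.08 ± 0.34 (SE, limma adjusted p = 3.1e-16).

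Of 14 listed genes of nitrogen uptake and assimilation, 10 were members and 6 of 9 tested were higher. After median-centring 2 were higher and 1 lower. The glutamate synthase GLT1 was another member far above es3dd, with 440 ± 63.3 for es3 and 22.8 ± 7.80 for es3dd (SD, n = 4). The plastid glutamine synthetase GLN2 averaged 28.9 and 29.3 as the authors' means and was the member called lower after centring.

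Enzymes of methionine and S-adenosylmethionine synthesis, a list put together after these values were known, had 14 members of 16. All 12 tested were higher, 10 when median-centred, and the median effect was 2.19. AK3 (AT3G02020, chromosome 3, 337712 to 343912) encodes an aspartate kinase, the entry enzyme of the aspartate pathway. Its authors' mean was 8308 in es3, and its es3dd libraries read 39.9, 60.4, 30.7 and 52.2. AK3 shares 51.3% of its 21-base words with other genes.

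Methionine synthase makes methionine from homocysteine. MS2 (AT3G03780, chromosome 3, 956862 to 961032) had an authors' mean of 3770.3 in es3 and es3dd libraries of 16.8, 24.7, 30.7 and 32.8. MS1 (AT5G17920, chromosome 5, 5935038 to 5939865) read 2582, 2122, 2339 and 2229 in es3 and 71.8, 79.6, 88.4 and 91.8 in es3dd. MS1 rose by 4.79 ± 0.09 (SE, limma adjusted p = 1e-23), and its es3dd values were themselves higher than those of most leading genes. Sulphate assimilation, which feeds the same pathway, had 3 members of 4 listed miR395 targets and all 3 were higher, 2 when centred. Its ATP sulfurylase gene APS1 averaged 610.4 ± 39.3 in es3 and 12.4 ± 5.76 in es3dd (SD, n = 4).

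Glucosinolates are sulphur-rich defence compounds of the cabbage family, made from methionine or tryptophan. Of 21 genes of their synthesis, again listed after the values were known, 20 were members, 18 were higher and 14 remained higher when centred, with a median effect of 2.34. CYP79B2 (AT4G39950), which starts the tryptophan branch, read 528, 554, 527 and 473 in es3 and 1.77, 1.83, 4.65 and 0.966 in es3dd. Its partner enzyme CYP79B3 (AT2G22330) averaged 399.5 ± 17.9 and 3.47 ± 2.02 (SD, n = 4). The groups were far apart in both.

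MYB28 (AT5G61420), the main regulator of the methionine branch, read 451, 427, 427 and 394 in es3 and 4.43, 5.49, 11.2 and 4.83 in es3dd. UGT74B1 (AT1G24100), a glucosyltransferase of the core pathway, read 346, 343, 347 and 356 in es3 and 7.09, 4.57, 12.1 and 3.86 in es3dd. Members that were not called were the aminotransferase gene BCAT4, with an effect of 0.17, and the sulfotransferase gene SOT18, with 0.85.

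Hormone signalling was another source of leaders. Some SMXL proteins repress strigolactone and karrikin responses, whereas SMXL3 to SMXL5 act in phloem formation. All 8 genes of the family were members, 7 of 7 tested were higher and 5 when centred. SMXL5 (AT5G57130, chromosome 5, 23144947 to 23149615) had an authors' es3 mean of 11907, while its es3dd libraries read 6.20, 13.7, 6.51 and 11.6. The authors' deposited table gives SMXL5 a log2 fold change of 10.30.

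SMXL4 (AT4G29920) averaged 2127 ± 90.8 in es3 and 2.33 ± 1.91 in es3dd, and SMXL7 (AT2G29970) at 1677 ± 67.2 and 4.44 ± 3.08 (SD, n = 4). Their relatives were far lower, with SMXL6 at 15.7 and SMXL8 at 8.002 as the authors' es3 means. Transcripts of the family were 3037 to 3925 bases long.

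Of 63 members that the annotation names as auxin-related, 53 were higher and 6 lower (41 and 7 when centred), with a median effect of 2.38. ARF6 (AT1G30330, chromosome 1, 10685822 to 10690988) encodes a transcription factor of auxin response and is a known miR167 target. It read 2634, 2682, 2892 and 2624 in es3 and 7.97, 4.57, 3.72 and 3.86 in es3dd. ARF6 rose by 8.86 ± 0.16 (SE, limma adjusted p = 6.6e-24), and no site for miR167 passed the pairing score on it. All 5 ARF targets of miR160 and miR167 were higher, also when centred, with ARF8 at 303 in es3 and 2.56 in es3dd as the authors' means.

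ARF10 (AT2G28350), whose miR160 site is printed above, read 286, 255.8, 303 and 326 in es3 and 2.66, 3.66, 1.86 and 0 in es3dd. Its close relatives ARF16 and ARF17 were much lower, at 11.2 and 20.1 as the authors' es3 means. The ARF genes targeted by trans-acting siRNAs, ARF2, ARF3 and ARF4, were all higher, with effects of 2.84 to 4.88.

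GH3 enzymes join amino acids to auxin and so inactivate it. Of 6 listed GH3 genes 4 were members and all were higher, also when centred or scaled to MIR loci. DFL1 (AT5G54510, chromosome 5, 22130964 to 22133688) read 2311, 1901, 1987 and 2176 in es3 and 0.886, 1.83, 2.79 and 0.966 in es3dd. Its log2 difference of 9.70 ± 0.19 (SE, limma adjusted p = 3.6e-23) rests on 1 to 3 reads in each es3dd library. WES1 (AT4G27260) averaged 539 ± 48.0 in es3, and in es3dd it had reads in library a only.

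NPY5 (AT4G37590), of a family that acts in auxin-regulated organ formation, read 2489, 2282, 2379 and 2303 in es3 and 0.886, 4.57, 4.65 and 0.966 in es3dd. NPY1 and NPY3, its 2 member relatives, were also higher but reached only 18.7 and 16.8 in es3 as the authors' means. Auxin receptors of the TIR1/AFB family are miR393 targets, and 3 of 4 were higher, also when centred. AFB2 (AT3G26810) read 649.7, 696, 699 and 658 in es3 and 27.5, 22.9, 34.4 and 17.4 in es3dd. AFB3 rose by 3.64 ± 0.23 and TIR1 by 3.03 ± 0.24 (SE, limma adjusted p = 8.4e-13 and 1.4e-10). AFB1 was not called, with an effect of 0.81.

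Cytokinin response factors are AP2/ERF proteins. All 6 were members, and the 5 tested were higher, also when centred. CRF2 (AT4G23750, chromosome 4, 12376122 to 12378032) had an authors' mean of 6649 in es3, with es3dd libraries of 12.4, 9.15, 2.79 and 3.86. CRF6 followed at 121 and the other members lay between 9.17 and 27.5 as the authors' es3 means. In ethylene signalling all 6 members were higher, 3 when centred. EBF1 (AT2G25490), an F-box gene whose messenger RNA accumulates when EIN5 is lost, averaged 684 ± 41.5 in es3 and 8.50 ± 2.58 in es3dd (SD, n = 4), while EBF2 averaged 31.8 and 2.06 as the authors' means.

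Receptor kinases with leucine-rich repeats perceive hormones and peptides at the cell surface. Of 19 listed, a list added after the values were known, 14 were members, all 13 tested were higher and 10 when centred. BRI1 (AT4G39400, chromosome 4, 18324457 to 18328831), the brassinosteroid receptor, had an authors' mean of 3188 in es3 and es3dd libraries of 15.9, 5.49, 2.79 and 15.5. PXY (AT5G61480), which maintains the vascular cambium, read 1832, 1537, 1732 and 1836 in es3 and 2.66, 3.66, 0.931 and 2.90 in es3dd.

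BAM1 (AT5G65700), a relative of CLV1, averaged 855 ± 60.2 in es3 and 8.60 ± 4.22 in es3dd, and BAM3 (AT4G20270), which acts in the phloem, at 547 ± 23.2 and 1.36 ± 1.57 (SD, n = 4). The coreceptor gene BAK1 reached only 12.1 in es3, and CLV1 22.5, as the authors' means. Of 284 protein kinase members in all, 259 of 283 tested were higher and 9 lower, and when centred 169 and 13.

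**Figure D3:**
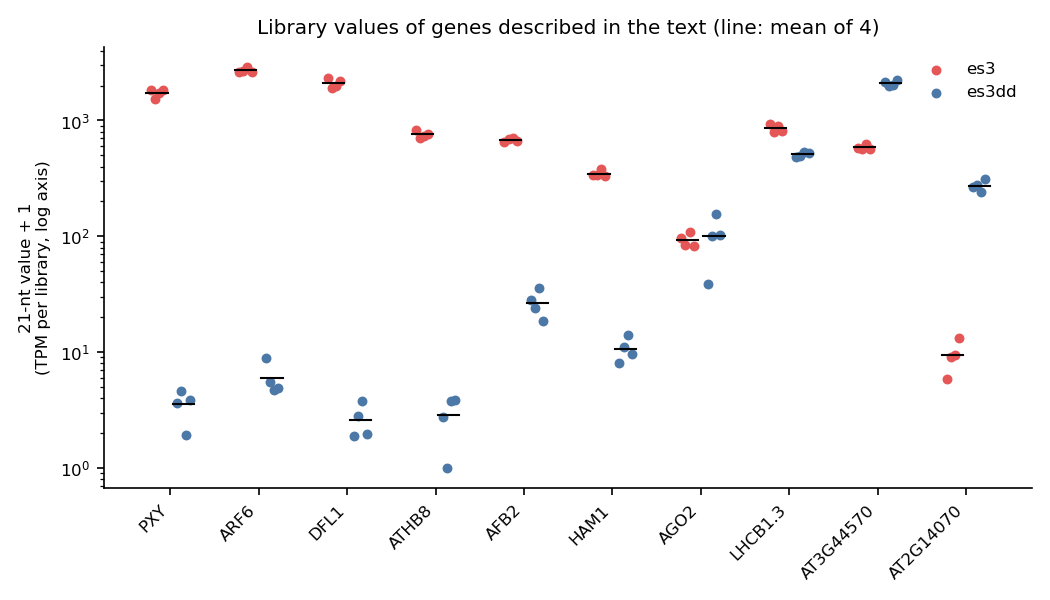
Recovered values of the 4 es3 and 4 es3dd libraries, each + 1 in TPM on a log axis, with the mean as a line, for 10 genes. The groups do not overlap for PXY, ARF6, DFL1, ATHB8, AFB2, HAM1, LHCB1.3, AT3G44570 and AT2G14070; they overlap for AGO2, and es3 is the lower group for the 2 genes on the right.

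Transcription factors that miRNAs target made up several lists. The 5 HD-ZIP III factors, which set organ polarity and vascular patterning, had a median effect of 7.07 and all were higher, also when centred or scaled to MIR loci. ATHB8 (AT4G32880) read 834, 701, 730.0 and 769 in es3 and 1.77, 0, 2.79 and 2.90 in es3dd. REV (AT5G60690) read 598, 479, 565 and 513 in es3 and 0.886, 0.915, 3.72 and 3.86 in es3dd. In Col their authors' means were 0.616 and 3.396, close to es3dd.

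SPL2 (AT5G43270), a miR156 target that promotes the change to adult growth, read 429, 358, 362 and 372 in es3 and 2.66, 3.66, 1.86 and 4.83 in es3dd. HAM1 (AT2G45160), a GRAS factor of shoot meristems whose site pairs with miR171a without a mismatch, read 339.8, 334, 378 and 329.8 in es3 and 7.09, 10.06, 13.03 and 8.69 in es3dd. All 6 SPL, 4 TCP, 2 GAMYB-like, 4 AP2-like, 3 HAM and 4 NF-YA members were higher, and all but 1 NF-YA gene when centred. None of 6 NAC targets of miR164 was a member.

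Growth-regulating factors promote leaf cell division. The 5 members among the 7 listed miR396 targets were higher but low, with es3 means of 8.65 to 32.4 in the authors' TPM. GRF5 (AT3G13960, chromosome 3, 4608076 to 4610497), which is not on that list, read 2392, 2114, 2608 and 2302 in es3 and 0, 2.74, 1.86 and 2.90 in es3dd. GRF5 rose by 9.85 ± 0.27 (SE, limma adjusted p = 2.7e-20) and had no site that passed the pairing score. None of the 5 listed members had a passing site either, so the score does not set GRF5 apart from them.

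Genes of the silencing pathway differed. AGO1, the main miRNA effector, and DCL1 were higher, with authors' es3 means of 252 and 74.1 and es3dd means of 14.8 and 3.23. AGO2, a target of miR403 with a penalty of 1, read between 82.0 and 109 in es3 and 38.1, 99.7, 155 and 102 in es3dd. The groups overlapped, with a log2 difference of 0.05 ± 0.25 (SE, limma adjusted p = 0.86), which moved to -0.34 ± 0.17 without es3dd library a and to 1.83 when scaled to MIR loci, where it was called higher. In Col the authors' AGO2 mean was 94.0.

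PPR proteins bind organelle RNA, and a group of them on chromosome 1 is known to make phased siRNAs after cleavage by miR161 and related small RNAs. Of 18 listed, 17 were members, all 13 tested were higher, also when centred, and their median effect of 8.22 was the highest of the lists. AT1G63080 (chromosome 1, 23387574 to 23390838) had authors' means of 3994 in es3, 3693 in Col and 15.99 in es3dd. AT1G62590 read 722, 845, 777 and 779 in es3 and 2.66, 0, 1.86 and 1.93 in es3dd. RPF2 (AT1G62670), which processes mitochondrial transcripts, read 722, 818, 715 and 752 in es3 and had reads only in es3dd library d.

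Many PPR genes of the group share 21-base words with other genes, 33.6% of them for AT1G63080 and 93% for AT1G63330, so that values of single genes are uncertain. Among the 40 members that the annotation names as PPR proteins, 34 of 36 tested were higher and 2 lower, and 17 and 2 when centred.

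NLR immune receptors are a second class whose siRNAs were present in Col. All 6 members of the miR472 group were higher, also when centred. AT5G43740 (chromosome 5, 17564697 to 17569148) averaged 2124 ± 76.3 in es3 and 42.8 ± 5.57 in es3dd (SD, n = 4), with an authors' Col mean of 805. AT5G38850 (chromosome 5, 15555156 to 15558882), which encodes a receptor of the TIR type, averaged 2145 ± 113 and 142 ± 20.9 (SD, n = 4), with 1798 in Col. At 22 nt the authors' means of AT5G38850 were 447 in es3 and 538 in es3dd, so that the direction at 22 nt, in its own TPM, was not that at 21 nt. Of 82 NLR members by annotation, 75 were higher and 1 lower, and 50 and 5 when centred.

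UDP-glucuronate epimerases make the sugar donor for pectin, and of 6 genes, listed after the values were known, 5 were members and the 4 tested were higher, also when centred or scaled to MIR loci. GAE6 (AT3G23820, chromosome 3, 8603212 to 8605810) had an authors' mean of 8952 in es3 and es3dd libraries of 53.2, 54.9, 44.7 and 38.6. GAE1 averaged 1121 ± 79.2 in es3 and 25.6 ± 4.55 in es3dd (SD, n = 4).

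The xyloglucan enzyme gene XTH9 (AT4G03210) read 1115, 1129, 1187 and 1227 in es3 and 6.20, 5.49, 7.45 and 13.5 in es3dd. The arabinogalactan protein gene AGP31 (AT1G28290) averaged 1190.0 ± 41.7 and 5.04 ± 1.76, and the extensin gene LRX3 (AT4G13340) at 1109.7 ± 47.3 and 43.4 ± 13.3 (SD, n = 4). Of 132 cell wall members 95 were higher and 8 lower, and 71 and 25 when centred.

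Other enzymes reached similar levels. The flavin monooxygenase gene FMO (AT1G12200) read 979.8, 912, 1078 and 972 in es3 and 0, 0.915, 0.931 and 1.93 in es3dd. ERD5 (AT3G30775), which encodes a proline dehydrogenase, read 819, 755, 845 and 699 in es3 and 0, 0.915, 0 and 3.86 in es3dd. The glycosyltransferase gene AT2G18570 averaged 919 ± 50.0 and 16.4 ± 3.58 (SD, n = 4), and 58 of 62 members of its class were higher and 1 lower, and 44 and 2 when centred.

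In phosphate homeostasis all 6 members were higher, 4 when centred, with the ubiquitin conjugase gene PHO2 (AT2G33770), a miR399 target, with es3 libraries averaging 332 ± 21.9 and es3dd libraries 2.78 ± 0.824 (SD, n = 4). All 6 anthocyanin members were higher, also when centred, with a median effect of 3.90. Of the other lists, 5 of 7 BEL1-like homeodomain, 3 of 8 circadian clock and 3 of 7 cold and dehydration members stayed higher when centred, from 7, 7 and 7 called.

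Genes of photosynthesis are among the most active in leaves. All 26 listed were members, 2 were higher and 1 lower (1 and 10 when centred, 25 and 0 when scaled to MIR loci), and the median effect was 0.05 beside 1.903 for protein-coding members. LHCB1.3 (AT1G29930), which encodes a light-harvesting protein, read 938, 797, 895 and 813 in es3 and 483, 498, 530.5 and 526 in es3dd. Its groups did not overlap, but the log2 difference of 0.75 ± 0.07 (SE, limma adjusted p = 2.8e-09) missed the threshold of 1, turned to -0.24 when centred and was called higher at 2.53 when scaled to MIR loci.

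RBCS1A (AT1G67090), for the small subunit of Rubisco, averaged 245 ± 7.59 in es3 and 198 ± 19.1 in es3dd (SD, n = 4), against an authors' mean of 652 in Col. The Rubisco activase gene RCA fell from 201 ± 8.53 in es3dd to 87.9 ± 4.92 in es3 (SD, n = 4), a log2 difference of -1.18 that was 0.60 when scaled to MIR loci. LHB1B2 (AT2G34420), outside the list, rose by 1.54 ± 0.08 (SE, limma adjusted p = 2.4e-14) but by 0.54, under the threshold, when centred. It shares 49.3% of its 21-base words and LHCB1.3 51.7%.

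Of 11 housekeeping members 7 were higher and none when centred. Their median effect of 1.13 was close to the 0.93 of all genes tested but below the 1.903 of protein-coding members. Of 185 ribosomal protein members 113 were higher and 2 lower, and 27 and 16 when centred, with a median effect of 1.15. All 6 members among cytoplasmic RNA decay factors were higher and none when centred, and of 4 members among 17 genes of the small RNA machinery, AGO7, AGO10, RDR6 and DCL4, all were higher and 2 when centred. Of the copper protein members, CSD1 was higher, with an effect of 1.03, and CSD2 was not called, with 0.69; neither was called when centred.

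**Figure D4:**
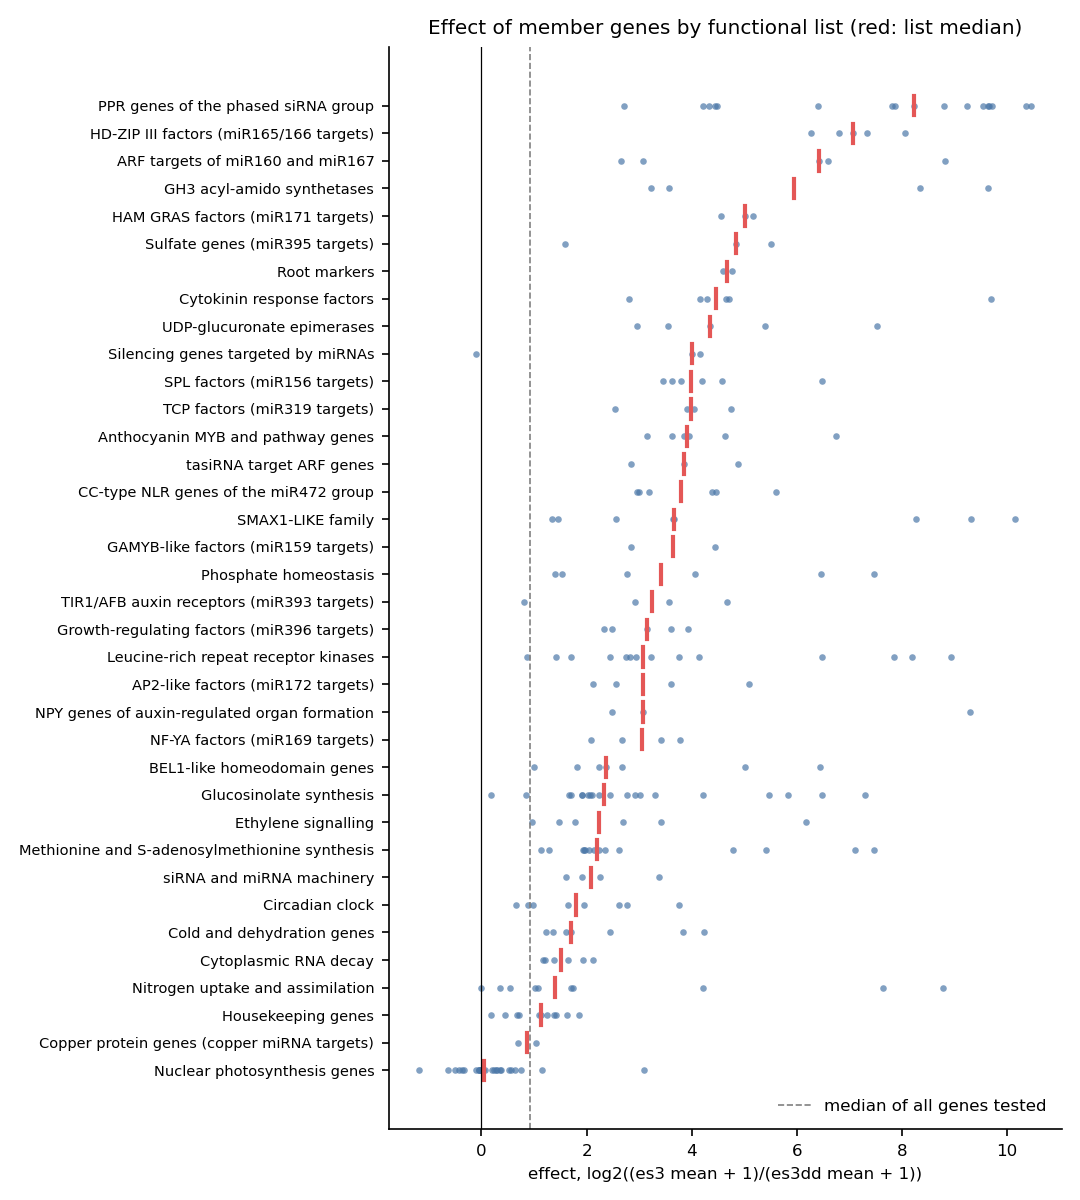
Effect of each member gene (points) of the functional lists with at least 2 members, with the list median in red and the median of all genes tested as a dashed line at 0.93. PPR genes (8.22) and HD-ZIP III factors (7.07) have the highest medians; nuclear photosynthesis genes (0.05) and copper protein genes (0.86) lie lowest.

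By annotation words, the median effect was 3.13 for AP2/ERF proteins (39 of 40 members higher), 3.03 for UDP-glycosyltransferases, 2.83 for homeodomain proteins (68 of 72), 2.75 for MYB proteins (35 of 40), 2.56 for WRKY proteins (23 of 24) and 2.40 for bHLH proteins (40 of 44). It was 1.35 for translation factors (32 of 45), 0.99 for aquaporins (12 of 21) and 0.14 for photosynthesis proteins (15 of 62). Beside these counts, 4961 of 6349 protein-coding members and 45.9% of all genes tested were higher. Only 40 of 190 AP2/ERF and 72 of 208 homeodomain genes were members, and entry through the es3 mean alone favours a higher call. After median-centring the counts for AP2/ERF and homeodomain proteins were 31 and 56, and 29 photosynthesis proteins were lower against 6 higher. The words were searched in protein-coding genes only. Words for transposable elements matched 15 members there, with 1 higher, 2 lower and a median effect of -0.49. Genes annotated as pseudogenes were not searched, so these 15 are no count of transposable element genes among all members.

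Single-exon genes made up 22.8% of protein-coding members and 20.4% of all protein-coding genes in the table, and their share differed with the es3 level. It was 15.4% of the 2921 genes at es3 means of 5 to 10 and 22.4% at 10 to 20, and it ran between 43.4% and 48.1% in the bins above 50. Single-exon members had a median effect of 2.63, members with 2 exons 2.12, and members with 11 or more exons 1.48. Among genes that share under 10% of their words, the medians were 2.75 for 1 exon and 1.80 for more. Median transcript length was 1831 bases in the lowest bin and 2307 in the highest, and its part in the trend was not tested. Because the es3 mean enters both the bins and the effect, the rise of the median effect from 1.59 to 7.65 over the bins follows in part from the binning.

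A paired miRNA site by the score above, leaving out the repeat-like miR414, was found on 73 protein-coding members, or 1.15%, against 0.584% of all protein-coding genes. The share was 0.445% at es3 means of 5 to 10, 14.3% at 300 to 1000 and 17.9% above 1000, where 7 of 39 genes had one. All 7 were PPR genes of chromosome 1 with a miR161 site, a group that shares sequence. The shares without the PPR group were not worked out. The median effect of the 73 was 3.60, or 3.07 for the 59 outside the PPR group, beside 1.89 for members without a site. Most leading genes, NIA2, SMXL5, GAE6, AK3, CRF2, MS2 and BRI1 among them, had none. The score also passed no site on the miRNA targets ARF6, ARF8, PHO2 and APS1 or on the listed GRF members. No miR472 sequence was among those scanned. Genes without a site in these shares and medians thus include known targets, and a missing site does not show that a gene is not targeted. Of the paired genes with an es3 mean of at least 50, GUN5 (miR395, penalty 3), with a log2 difference of 0.43, and AGO2 had an effect under 1.

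**Figure D5:**
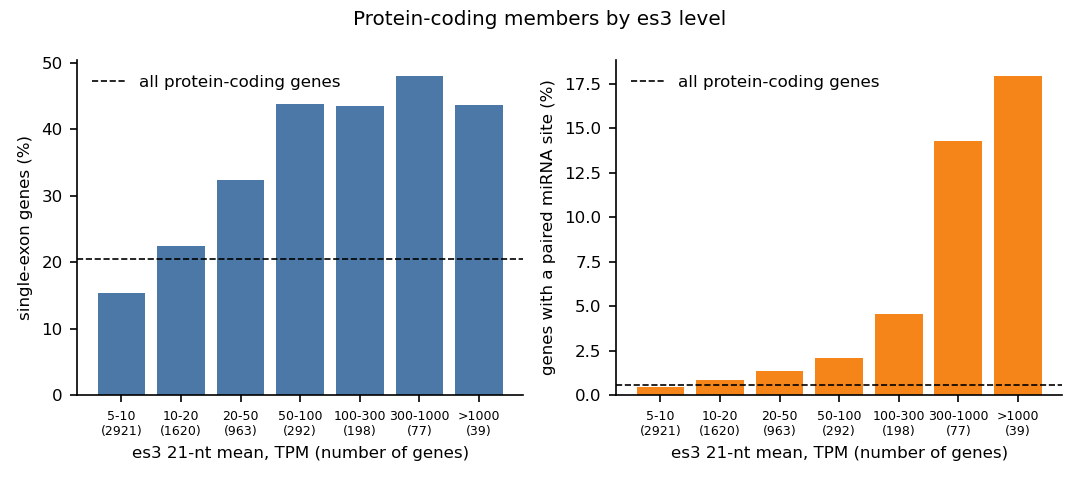
Share of single-exon genes (left) and of genes with a paired miRNA site, miR414 left out (right), in percent, among protein-coding members in bins of the es3 mean, with the number of genes in each bin under the bar and the share of all protein-coding genes in the table as a dashed line. The single-exon share levels off above 50 TPM, while the paired share keeps rising to 17.9% of the 39 genes above 1000 TPM. In that last bin all paired genes are PPR genes with a miR161 site.

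The 22-nt class followed the 21-nt class in the abundant genes. In the authors' deposited table, 1409 of the 4725 protein-coding members higher at 21 nt were also higher at 22 nt and 3 lower, against 10.9% and 3.78% of all genes with a 22-nt result. The 4725 include genes without a 22-nt result, counted as not called, so these shares have unlike bases. Of the 284 protein-coding genes with an es3 mean of at least 100 and an effect of at least 1, 259 were higher at 22 nt. Their 22-nt mean was a median 0.277 times the 21-nt mean in es3 (quartiles 0.217 and 0.344), each class in its own TPM. For NIA2 the authors' 22-nt means were 3343 and 17.7.

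No 21-nt read was recorded in es3dd for 201 members, 199 of them protein-coding. The highest of these in es3 was the PPR gene AT1G63320, at 90.1, 73.6, 77.96 and 93.5, which is at least 121-fold higher when es3dd is set to 3 reads over the group (0.693 TPM, counting error only). The sugar transporter gene SWEET13 (AT5G50800) read 52.7, 48.1, 45.9 and 46.8, at least 69.8-fold higher. The MYB-like gene AT5G05790 read 57.6, 59.0, 58.1 and 39.4, at least 77.3-fold higher.

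MIR loci ran the other way on the authors' scale. Before their values, es3dd library a has to be set apart: the SD of its log2 deviation from the group mean over 69 MIR loci was 0.69, against 0.24 to 0.29 in the other es3dd libraries, while over protein-coding genes it was 0.27, against 0.23 to 0.27. Of 84 MIR loci tested, 73 were lower and 2 higher, and without library a 73 and 1. The locus that lost its call, MIR858a (AT1G71002), moved from 1.23 ± 0.27 to 0.81 ± 0.18 (SE). Scaled to MIR loci, 9 were higher and 13 lower.

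The abundant loci are described from the authors' deposited table. MIR159a had means of 36864 in es3 and 106095 in es3dd, MIR161 of 23847 and 122416, MIR173 of 4162 and 19864 and MIR165a of 3678 and 17777. MIR393b read 2044, 1902, 2025 and 1749 in es3, against an authors' es3dd mean of 23382, a log2 fold change of -3.60 in that table. MIR845a, at 3211 and 2004, was among the few loci with more reads in es3.

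Some other genes were also lower in es3 than in es3dd. AT2G14070 (chromosome 2, 5921881 to 5923151), annotated as wound-responsive, read 4.85, 8.02, 8.41 and 12.3 in es3 and 265, 275, 242 and 309 in es3dd. Its neighbour AT2G14090 (chromosome 2, 5929814 to 5931809), a pseudogene, read 64.5, 40.1, 45.1 and 41.0 in es3 and 1129, 1153, 1024 and 1314 in es3dd. AT3G59240 (chromosome 3, 21898682 to 21900364), which encodes a leucine-rich repeat protein, read 54.1, 29.1, 38.2 and 31.2 in es3 and 1143, 1115, 1046 and 1360.1 in es3dd. These 3 were lower in es3 also when centred and when scaled to MIR loci, where they fell by 2.81 to 3.15 on the log2 scale. AT2G14090 and AT3G59240 had similar values in each es3dd library, and both had authors' 22-nt means of 158.3 in es3dd. Whether they share reads was not tested, so they may not be separate cases.

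AT1G66290 (chromosome 1, 24713306 to 24714843), an F-box gene, averaged 81.0 ± 3.23 in es3 and 687 ± 73.8 in es3dd (SD, n = 4). AT3G44570 (chromosome 3, 16158405 to 16159835), annotated as a retrotransposon protein, averaged 588 ± 29.1 and 2109 ± 116 (SD, n = 4), a log2 difference of -1.84 that was -0.06 when scaled to MIR loci. The uncharacterized AT3G06435 (chromosome 3, 1968288 to 1970946) had authors' means of 1883 in es3 and 5169.5 in es3dd at 21 nt, but of 4487 and 1255 at 22 nt.

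The small RNAs of the mutated genes themselves were few and do not check the genotypes. DCL4 had authors' 21-nt means of 6.87 in es3 and 1.58 in es3dd, DCL2 of 4.04 and 0.241, XRN4 of 3.38 and 1.13 and SKI2 (AT3G46960) of 3.53 and 0.233. Leaf identity could be read only from small RNAs: all 26 photosynthesis genes were members, none of the 6 floral organ identity genes was, and 2 of 7 root markers were, SCR and SHR, which also act in leaves.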

How the data were processed

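The deposited file gives, per gene, the authors' mean 21-nt and 22-nt TPM of each genotype, with their log2 fold changes, p-values and adjusted p-values. The deposited TPM is not divided by gene length, and its denominator is not given in the sources used here. Per the submitters' processing notes, Bowtie 1.2.2, SAMtools 1.9, DESeq2 and the build TAIR10 were used. Counting rules and the treatment of reads with several matches are not stated in the sources used here. MIR395b and MIR395c have the same mature sequence and identical means, 161.6 in es3 and 1016 in es3dd. Reads of shared sequence thus entered the values of both loci.

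Whole reads of each library were recovered from the means at a relative tolerance of 3e-15, for 25352 of 25389 genes above 0 in es3 and 21602 of 21640 in es3dd. For highly covered genes, only splits with each library within 0.5 or, at the highest levels, 0.15 of the mean, as a share of it, were tried. The spread of those genes is therefore bounded by the search. In the 0.15 search 11 of 38 es3 genes had no solution. In the searches for highly covered genes, up to 4.17% of random values also matched, so that a few of those genes may be wrong. Below them 0 of 50432 and 0 of 43114 did. On simulated means none was recovered wrongly, but in the 0.15 search 10 of 60 in es3 and 20 of 60 in es3dd were not resolved. The simulation used a modest spread between libraries. It does not cover loci with a larger one, such as MIR loci in es3dd, where the 90th percentile of the SD was 41.0% of the mean. One read is worth 0.693 to 0.820 TPM in es3 and 0.886 to 0.966 in es3dd, and intervals for low values cover counting error only. Recovered genes hold 56.2% of the es3 signal and 19.0% of the es3dd signal; others are given from the authors' table. No pair of libraries agreed within counting error.

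Tests used limma 3.58.1 (trend) in R 4.3.3 on log2(TPM + 1) for genes with a mean of at least 1, with Benjamini-Hochberg adjustment over 17448 genes. On simulated data of this comparison with 16603 genes, 100% of 4-fold and 40% of 2-fold changes were called. Names, exons and sequences come from RefSeq TAIR10.1, with 31722 gene IDs matched. Member genes, the 38 lists and 31 annotation-word classes were chosen with earlier results of these data known; 5 lists and corrections to 4 annotation patterns were added after the values were seen. Named genes are the 30 highest in es3 outside MIR loci, the 10 largest and 10 most negative effects, the 10 leading MIR loci, in each list or class up to 4 members by es3 mean and 2 by smallest effect, members at 0 in es3dd and the 20 highest in es3dd; others were chosen after their values were seen. Lists carry no test.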

Additional observations from a re-analysis of the deposited data

Results flagged for a closer look

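In 99 groups of 4 library values of genes given in the text, 5 held a library whose gap to the nearest of the others exceeded, as a share of the group's range, Dixon's 95% critical value for 4 values, and chance gives about 1 in 20. In es3dd, RPF2 read 0.966 in library d and 0 in the others, WES1 read 2.66 in library a and 0 in the others, and MYB28 read 11.2 in library c and 4.43 to 5.49 in the others. In es3, AT5G05790 read 39.4 in library d and 57.6 to 59.0 in the others, and AT3G44570 read 631 in library c and 570.1 to 580.4 in the others.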

How the results depend on the processing

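Over all genes tested, the 8006 higher and 1347 lower in es3 became 3318 and 462 with a pseudocount of 5, 3190 and 4519 when median-centred, 15141 and 29 with MIR scaling, and 14307 and 61 with plastid scaling; 3218 were higher with a minimum mean of 5. Of members, 5011 higher and 1116 lower became 3318 and 462 with a pseudocount of 5 and 2976 and 3036 when median-centred; 29 and 61 were lower with MIR and plastid scaling, and 3218, 2760 and 3218 were higher with a minimum mean of 5, with a threshold of 10 in either mean and with a mean of both groups of 5. Voom weights, a pseudocount of 0.5, no filter and the authors' table moved no count by over 1.5 times. Leaving out each library in turn gave 7047 to 7722 higher and 1225 to 1323 lower genes, and 4772 to 4973 and 1046 to 1143 members. The median member effect of 1.27 became 1.36 with a threshold of 10, 0.89 with a mean of both groups of 5, 0.74 and 1.40 with pseudocounts of 5 and 0.5, and 3.22 and 2.84 with MIR and plastid scaling. With a threshold of 10, MIR loci held 36.8% of the es3 and 86.1% of the es3dd sum. For 46 genes given by library, 725 of 736 alternative values stayed on the same side of the threshold, 3 fell below it and 8 rose above it. Of values past the threshold, 0 changed sign; of the others, median-centring turned AGO2 to -0.94, GUN5 to -0.57, LHCB1.3 (AT1G29930) to -0.24 and RBCS1A to -0.69, and AGO2 was -0.03 without es3 library c and -0.34 without es3dd library a. The causes were not tested. The single-exon share of genes with an es3 mean of at least 50 was 44.2% and 44.6% without genes that share sequence, an alternative chosen after seeing the data. No paired analysis was possible because values worked back from means have no numbers to pair by. At the low end, a value of 1 TPM rests on 1 or 2 reads in a library.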
